A study of Homo sapiens with 2 samples.

Results

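RNA-seq reads were examined for 10 genes that encode cytokine receptor chains of lymphoid cells, out of 37122 genes counted in Ramos and Ramos640 cells. The genes were IL7R, IL2RG, IL2RA, IL2RB, IL4R, IL21R, IL10RA, IL10RB, IL6R and IL6ST. They were chosen by family, and in part on the read counts themselves, since IL7R had no reads in Ramos640. The differences between the libraries are therefore given as a description. Ramos is an established human Burkitt's lymphoma (BL) cell line of B-cell origin. Ramos640 was derived from Ramos by culture in rising concentrations of rituximab, an antibody against CD20, with normal human serum (NHS) as a source of complement. Its resistance to complement-dependent cytotoxicity (CDC) was kept up with rituximab and 20% NHS every 21 days, at a rituximab concentration of 640 μg/mL in the study's methods and of 640 mg/mL in the sample labels. Ramos cells were kept in medium with fetal bovine serum, and the study's methods name no separate medium for Ramos640. The sources used here do not say whether Ramos640 is a single clone. RNA of 3 passages was pooled for each cell line and gave 1 library, so no difference below has a replicate check and none was tested.

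Interleukin receptors are built from a few chains that are shared between cytokines. IL2RG, the common γ chain, joins IL7R to form the IL-7 receptor, IL4R to form a receptor of IL-4, IL21R to form the IL-21 receptor, and IL2RA with IL2RB to form the high-affinity IL-2 receptor. IL10RA and IL10RB form the IL-10 receptor, and IL6R hands IL-6 to IL6ST, the signalling chain gp130. The chains that signal, such as gp130, bind Janus kinases (JAK), which phosphorylate STAT transcription factors. IL7R marks lymphocyte precursors and T cells, while IL4R and IL21R serve mature and germinal centre B cells, the stage from which BL arises.

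The 2 libraries held 38030090 reads (Ramos) and 30871826 reads (Ramos640). Each library was scaled by its median-of-ratios size factor (1.14 and 0.876), and the log2 ratio of Ramos640 to Ramos (log2FC) was computed with a pseudocount of 1. Intervals are at 95% and cover counting error only. Over the 18778 genes with at least 10 reads in both libraries together, the median log2FC was -0.015, with quartiles of -0.40 and 0.34. All 7 B-cell markers listed were read in both libraries. CD79B, a subunit of the B-cell receptor complex, had 69495 reads in Ramos and 82890 in Ramos640. The MS4A1 gene, which encodes CD20, had 9654 and 1904 reads.

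IL4R was the most abundant of the 10 chains and IL2RB was not read at all. Levels of different genes are compared as reads scaled to library total and to kilobases of annotated exon (RPKM). In the Ramos library IL4R stood at 49.2 RPKM, followed by IL21R at 17.1, IL2RG at 10.7, IL2RA at 8.88, IL10RB at 4.51, IL10RA at 2.57, IL7R at 1.04 and IL6ST at 0.809. The counting intervals of these 8 levels did not overlap between neighbours in the order. IL4R alone made up 51.9% of the summed RPKM of the 10 genes in Ramos and 49.0% in Ramos640. Among the 12118 protein-coding genes tested, the level of IL4R was at the 93.8th percentile in Ramos, that of IL2RG at the 72.8th and that of IL7R at the 26.6th. In the Ramos640 library IL4R (38.7 RPKM) and IL21R (14.6) again came first. IL2RA (9.87) and IL2RG (8.99) followed, with overlapping intervals, and then came IL10RB (4.46), IL10RA (1.86) and IL6ST (0.505).

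**Figure D1:**
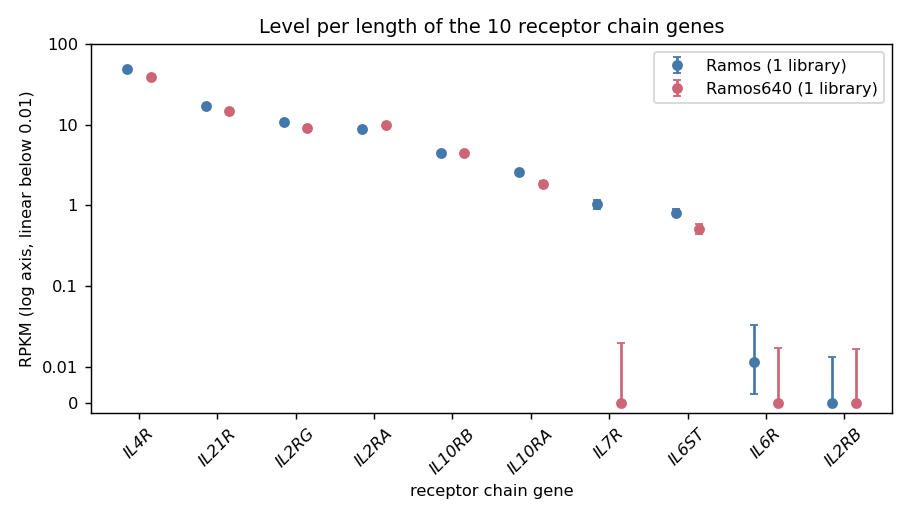
RPKM (log axis, linear below 0.01) of the 10 receptor chain genes in the Ramos and Ramos640 libraries, with 95% counting intervals and 1 library per cell line. IL4R leads in both libraries (49.2 and 38.7 RPKM), IL7R has a level of 1.04 RPKM in Ramos and 0 in Ramos640, and IL2RB is at 0 in both.

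Of the 10 genes, 8 had at least 10 reads, and IL7R passed this minimum through the Ramos library alone. Of the 8 genes, 6 were lower and 2 were higher in Ramos640, with 6 intervals below 0, 1 above 0 and 1 that included 0. With total counts as the scale 7 were lower and 1 was higher. A log2 fold change below 0 was found for 51.2% of all genes tested, an interval below 0 for 31.6% and an interval above 0 for 29.6%. The difference was past 1.5-fold, the fold criterion of the study, for 2 of the 8 genes (IL7R and IL6ST), both lower in Ramos640. Of all genes tested, 31.9% were past 1.5-fold and 17.3% were past it in this direction. IL7R was chosen in part for its empty count, so its place in these counts was set in advance. Of the 7 genes without IL7R, 5 were lower and 2 were higher. Their intervals lay below 0 for 5 and above 0 for 1, and 1 gene, IL6ST, was past 1.5-fold. The median log2 fold change was -0.22 over the 8 genes and -0.17 over the 7 genes without IL7R. Only for IL7R did the whole interval lie past 1.5-fold, as it did for 7.35% of all genes tested in this direction and for 5.79% in the other. For 6 of the genes the whole interval lay inside 1.5-fold in both directions.

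**Figure D2:**
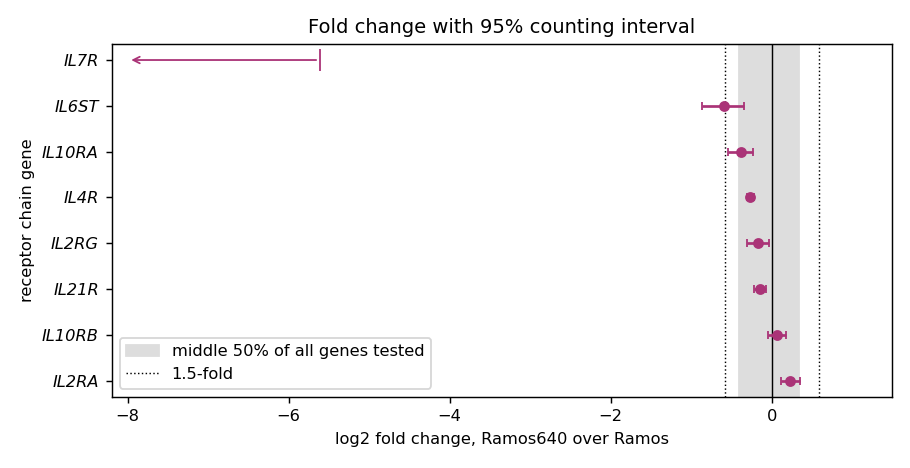
Log2FC of Ramos640 over Ramos (horizontal axis) for the 8 receptor chain genes with at least 10 reads, with 95% counting intervals, 1.5-fold as dotted lines and the interquartile range of all genes tested in grey. IL7R is drawn as an arrow to the left of its upper limit of -5.61, IL6ST lies at -0.60, and the other 6 genes lie between -0.39 and 0.23.

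IL7R, which encodes the α chain of the IL-7 receptor, had 237 reads in Ramos and 0 in Ramos640. It lies at chr5:35852797-35879705 of GRCh37, on the forward strand. At the level of the Ramos library, 182 reads would have been counted in Ramos640. For an empty count a floor of 3 reads was used. Set against these 182 reads, on the scale of the size factors, this floor made IL7R at least 60.7-fold lower in the Ramos640 library. The 95% interval, which has limits on both sides, allows an empty count more reads than this floor. It gave an upper limit of -5.61 for the log2FC, a wider bound, so the value of 60.7-fold holds for the floor only. Fewer cells with the transcript and less transcript per cell cannot be told apart in RNA from whole cultures. Of 12418 genes with at least 100 reads in Ramos, 10 (0.0805%) had 3 or fewer in Ramos640. The 5 protein-coding genes nearest to IL7R in the 2 libraries, by the Euclidean distance of log2 normalized counts plus 1, were PRKCB (216 and 0 reads, distance 0.133), TLL1 (111 and 0, distance 1.09), CNKSR2 (219 and 1, distance 1.10), C20orf194 (123 and 1, distance 1.45) and PLCB2 (103 and 1, distance 1.62). The study reported the protein PKCβ2, a product of PRKCB, as overexpressed in Ramos640. How these read counts relate to that protein was not tested.

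T cells, monocytes and NK cells carry IL7R or other receptors examined here, and few reads of their markers were counted in either library. Of 7 T-cell markers 4 had no reads, CD3D and CD2 among them, and the 7 together held 49 reads in Ramos and 46 in Ramos640. CD3E had 1 and 31 reads and CD28 had 43 and 14. The 7 monocyte markers together held 48 and 25 reads, with 28 and 6 for VCAN, 13 and 4 for S100A8, 2 and 3 for CD14 and 0 and 1 for LYZ. The 5 NK-cell markers held 14 and 13 reads, with 13 and 3 for NKG7, 0 and 10 for NCAM1 and none for GNLY and KLRF1. The part of these markers in the values of IL7R was not tested. PTPRC, which encodes the leukocyte phosphatase CD45, had 8585 and 3367 reads.

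The genes next to IL7R on either side had lower values in Ramos640, at low counts. SPEF2, which ends before IL7R, had 14 reads in Ramos against 2 in Ramos640 (-2.02, interval from -5.61 to -0.30). CAPSL, which follows IL7R, had 42 and 9 reads (-1.75, interval from -3.07 to -0.78). The next genes on both sides differed less. LMBRD2 had 449 and 212 reads (-0.70) and SKP2, a subunit of a ubiquitin ligase, had 1598 and 1006 (-0.29). On the other side, DNAJC21 had 2223 and 1382 reads (-0.30) and BRIX1, a ribosome assembly factor, had 3510 and 2286 (-0.24). Within 5 Mb on each side 31 other protein-coding genes had at least 10 reads. Their median log2 fold change was -0.29, and 7 were lower and 1 was higher past 1.5-fold, beside 17.3% and 14.6% of all genes tested. Farther out, C5orf42 had 33 reads in Ramos against 1 in Ramos640 (-3.80, interval from -10.0 to -2.08). PTGER4, a prostaglandin receptor, had 22 and 3 (-2.20, interval from -4.88 to -0.76), and C9, a complement component, had 14 and 0. RICTOR, at higher counts, had 532 and 234 reads (-0.80, interval from -1.03 to -0.58). These genes farther out were named after their values were seen. The GC content trend described below also moves these values, and with it removed SPEF2 stood at -1.77, CAPSL at -1.63, LMBRD2 at -0.33, inside 1.5-fold, SKP2 at -0.087, DNAJC21 at -0.018 and BRIX1, now higher in Ramos640, at 0.067.

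**Figure D3:**
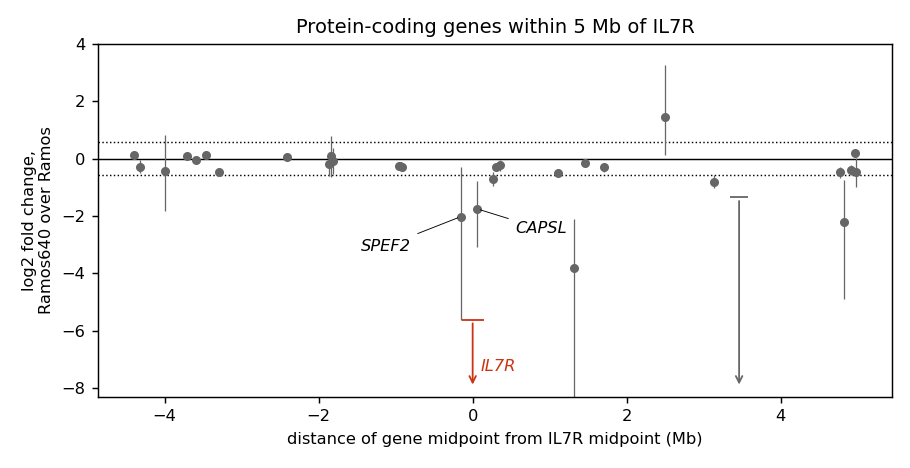
Log2FC of Ramos640 over Ramos for protein-coding genes with at least 10 reads, against the distance of their midpoint from that of IL7R in Mb, with 95% counting intervals and dotted lines at 1.5-fold. Genes with 0 reads in Ramos640 are arrows down from their upper limit, which is -5.61 for IL7R, and the neighbours SPEF2 and CAPSL lie at -2.02 and -1.75. The lower limit of 1 other gene runs below the axis.

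The stretch of 250 bases before the transcription start was searched on both strands for motifs of factor families that are known to act at the IL7R gene or downstream of the receptors. The motifs were AGGAAGT (ETS family), TGTGGTT (RUNX), GTAAACA (FOXO) and TTCNNNGAA (STAT), where N is any base. The sequences are those of RefSeq on GRCh38.p14, which held 9 of the 10 genes, all but IL2RB. IL7R, IL2RA and IL2RG were the 3 genes with a match and are shown 5′ to 3′ with the matches in capitals.
IL7R, chr5:35856641-35856890, forward strand: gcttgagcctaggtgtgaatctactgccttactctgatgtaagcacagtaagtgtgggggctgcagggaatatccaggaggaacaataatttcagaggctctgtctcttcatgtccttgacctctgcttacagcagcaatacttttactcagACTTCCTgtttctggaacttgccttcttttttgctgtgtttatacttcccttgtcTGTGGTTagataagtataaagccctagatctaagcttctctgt
IL2RA, chr10:6062368-6062617, reverse strand: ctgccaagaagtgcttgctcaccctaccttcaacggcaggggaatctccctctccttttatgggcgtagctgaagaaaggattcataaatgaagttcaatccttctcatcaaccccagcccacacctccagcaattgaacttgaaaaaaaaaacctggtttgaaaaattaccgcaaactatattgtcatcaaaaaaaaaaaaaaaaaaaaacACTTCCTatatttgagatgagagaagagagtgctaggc
IL2RG, chrX:71111578-71111827, reverse strand: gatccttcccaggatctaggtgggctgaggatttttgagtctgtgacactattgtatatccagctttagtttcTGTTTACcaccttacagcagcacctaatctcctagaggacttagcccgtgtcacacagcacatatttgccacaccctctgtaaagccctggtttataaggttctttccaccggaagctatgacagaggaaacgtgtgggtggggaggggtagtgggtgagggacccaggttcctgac
IL7R held an ETS family match from 98 to 92 bases before the start and a RUNX match from 43 to 37. IL2RA held an ETS family match from 38 to 32 bases before the start and IL2RG a FOXO match from 177 to 171. Of 27305 promoter windows of this length, 7.10% held the ETS family motif, 3.63% the RUNX motif, 2.98% the FOXO motif and 6.78% the STAT motif. The matches overlapped no other match. The window of IL7R held no CG dinucleotide, which was so for 6.39% of the windows, while the median window held 11. IL21R, which was read in both libraries, also held none, IL10RA held 2, IL2RA and IL2RG held 3 each, and IL10RB (17), IL6R (22), IL6ST (31) and IL4R (35) held more.

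All 6 genes listed as regulators of the IL7R gene were lower in Ramos640, with every interval below 0 and a median log2FC of -0.57. Of all genes tested, 31.6% had an interval below 0 and 17.3% were lower past 1.5-fold. FOXO1, a forkhead factor that activates IL7R in lymphocytes, had 1917 reads in Ramos and 811 in Ramos640 (-0.86, interval from -0.98 to -0.74). RUNX1 had 561 and 242 reads (-0.83, interval from -1.06 to -0.61). These 2 were past 1.5-fold. With TMM GABPA passed too (-0.59), with total counts GABPA (-0.66) and SPI1 (-0.65) did, and with the GC content trend removed SPI1 did (-0.74) while GABPA stood at -0.26. GABPA, an ETS family factor, had 1102 and 565 reads (-0.58), and SPI1, which encodes PU.1, had 1987 and 1030 (-0.57). GFI1, a repressor, had 500 and 296 reads (-0.37), and ETS1 had 21863 and 13942 (-0.27). The 6 genes were also lower with TMM, with total counts and with the GC content trend removed. The list was drawn up with earlier results of these data known, and a link between these genes and the values of IL7R was not tested.

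The common γ chain differed by less than 1.5-fold. IL2RG (chrX:70327254-70331958) had 1111 reads in Ramos against 759 in Ramos640. Its log2FC was -0.17 (interval from -0.30 to -0.034). IL2RA, the α chain of the IL-2 receptor (CD25, chr10:6052652-6104333), had 1338 and 1207 reads (0.23, interval from 0.12 to 0.35) and was the one gene of the 10 with an interval above 0. IL2RB (chr22:37514706-37571158), the β chain that IL-2 and IL-15 signalling needs, had 0 reads in both libraries. The limit of 3 reads puts IL2RB at or below 0.0108 RPKM in Ramos and 0.0133 RPKM in Ramos640. IL2RA was thus read without any read of the β chain. IL15RA, the α chain for IL-15, which is not one of the 10 genes, had 168 and 247 reads (0.93, interval from 0.65 to 1.23).

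IL4R and IL21R lie next to each other on the forward strand, at chr16:27324989-27376099 and chr16:27413495-27463363 of GRCh37. IL4R, the α chain for IL-4 and IL-13, had 10999 reads in Ramos and 7028 in Ramos640 (-0.27, interval from -0.31 to -0.22). IL21R had 3542 and 2454 reads (-0.15, interval from -0.22 to -0.074). Both were lower by less than 1.5-fold. The antisense gene IL21R-AS1 overlaps IL21R and had 779 and 533 reads, and since the use of strand in counting is not stated, reads of these 2 genes cannot be told apart.

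Ratios between 2 chains within a library do not depend on how the libraries were scaled. The GC content trend described with IL6ST can still move them where the 2 chains differ in GC content. IL10RA had 52.5% GC and IL10RB 41.9%, and with the trend removed their log2FC was -0.51 and 0.26. IL4R had 57.7% and IL2RG 50.6%, with -0.45 and -0.23. The ratios were not corrected for this trend. Per length, IL4R stood to IL2RG at 4.60 in Ramos (interval from 4.33 to 4.90) and 4.30 in Ramos640 (from 3.99 to 4.64), and IL21R to IL2RG at 1.60 (from 1.49 to 1.71) and 1.62 (from 1.49 to 1.76). The intervals of both ratios overlapped between the libraries. IL2RA to IL2RG went from 0.831 (from 0.767 to 0.901) to 1.10 (from 1.00 to 1.20), and IL15RA to IL2RG from 0.114 (from 0.0962 to 0.134) to 0.245 (from 0.211 to 0.283), without overlap. IL7R to IL2RG was 0.0969 in Ramos (from 0.0839 to 0.112) and at most 0.00221 in Ramos640. IL10RA to IL10RB went from 0.570 (from 0.523 to 0.621) to 0.416 (from 0.374 to 0.463), again without overlap.

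**Figure D4:**
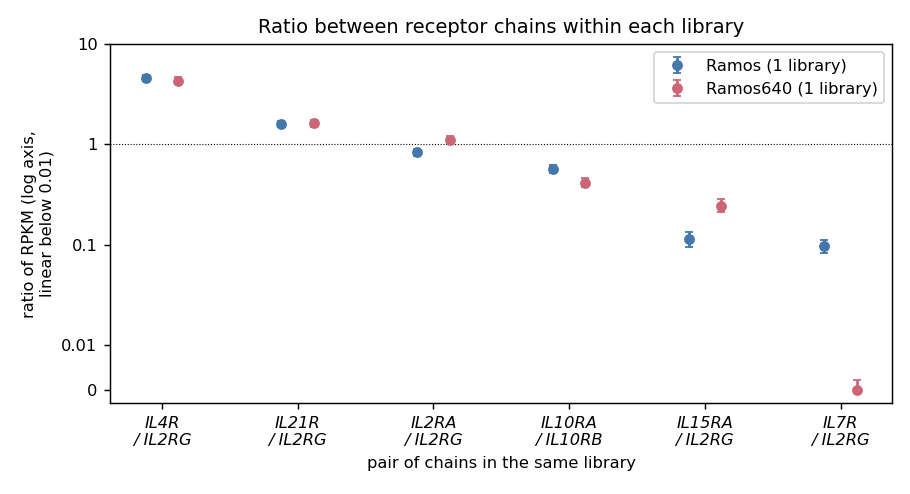
Ratio of the RPKM of 2 receptor chains within the same library (log axis, linear below 0.01), with 95% counting intervals and 1 library per cell line. The ratios of IL4R and IL21R to IL2RG have overlapping intervals in the 2 libraries, those of IL2RA and IL15RA to IL2RG are higher in Ramos640 (1.10 and 0.245), and those of IL10RA to IL10RB and IL7R to IL2RG are lower (0.416 and 0).

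The 2 chains of the IL-10 receptor were both read in both libraries. IL10RA (chr11:117857085-117873752), the ligand-binding chain, had 862 reads in Ramos and 506 in Ramos640 (-0.39, interval from -0.55 to -0.23). IL10RB (chr21:34638672-34683725), the accessory chain that receptors of IL-22 and λ interferons share, had 1375 and 1105 reads (0.066, interval from -0.050 to 0.18). Its value was -0.015 with total counts, and with the GC content trend removed, which is described with IL6ST, it was 0.26, outside that interval. The direction of IL10RB thus depended on the scaling. IFNLR1, its partner for λ interferons, listed under its older symbol IL28RA, had 930 and 621 reads (-0.20).

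The chains for IL-6 were read little. IL6R (chr1:154377669-154441926) had 3 reads in Ramos and 0 in Ramos640, so both libraries were at or under the floor and no fold is given. The pseudogene PSMD8P1, which overlaps IL6R on the opposite strand, had 145 and 72 reads, and how reads were divided between them is not stated. IL6ST (chr5:55230923-55290850) had 371 and 188 reads (-0.60, interval from -0.86 to -0.34). Genes whose longest transcript was richer in GC had higher values in Ramos640 (Spearman's rho = 0.419 over 10246 genes with 100 or more reads, where genes are not independent replicates), and IL6ST had the lowest GC content of the 10 genes (36.5%). With this trend removed its log2FC was -0.25, inside 1.5-fold. The IL6ST pseudogene IL6STP1 had 8 and 6 reads. Of the nearest genes, PPAP2A, a lipid phosphatase, had 195 and 51 reads (-1.54, and -1.58 with the trend removed), SLC38A9 had 368 and 184 (-0.62, and -0.27 with the trend removed) and MAP3K1, a kinase, had 889 and 595 (-0.20).

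Other receptor chains were both higher and lower. Of 46 other class I, class II, IL-1 and IL-17 receptor chains, 17 had no reads and 21 had at least 10. Of these 21, 8 were higher and 13 were lower in Ramos640, 3 past 1.5-fold in each direction, beside 17.3% (lower) and 14.6% (higher) of all genes tested, with a median log2FC of -0.099. The most abundant was CSF2RB, the β chain shared by the receptors of IL-3, IL-5 and GM-CSF, with 5168 and 3590 reads (-0.14, interval from -0.21 to -0.083) and 27.2 and 23.3 RPKM. The α chains that CSF2RB pairs with were near the floor, with 9 and 12 reads for IL3RA and none for IL5RA and CSF2RA. All 6 class II chains with at least 10 reads were lower, none past 1.5-fold, and 51.2% of all genes tested were lower. Of their intervals 3 lay below 0, as for 31.6% of all genes tested, and 3 included 0. Values ran from IFNAR1 (1160 and 853 reads, -0.062, interval from -0.19 to 0.066) to IL20RB (32 and 17 reads, -0.51, interval from -1.47 to 0.36). With the GC content trend removed 2 were higher and 4 lower. CRLF2, which pairs with IL7R in the receptor of TSLP, had 17 reads in each library. CRLF2, IL3RA, CSF2RA and IL9R lie in regions that chromosomes X and Y share, and how reads that fit both were counted is not stated. IL1RAP, the accessory chain of the IL-1 receptor, had 408 and 204 reads (-0.62), and LEPR, the leptin receptor, had 61 and 29 (-0.68). With the GC content trend removed these 2 were inside 1.5-fold (-0.40 and -0.35).

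The cytokines themselves were nearly absent. Of 15 ligands 7 had no reads in either library, among them IL7, IL2, IL6, IL10 and IL21, and 14 had fewer than 10 in both together. OSM, a ligand of receptors that contain gp130, had 9 and 21 reads (1.49, interval from 0.42 to 2.91). TSLP had 7 and 0 reads.

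Of the kinases and STAT factors, 10 of 11 had at least 10 reads, with 6 lower and 4 higher in Ramos640, 5 intervals below 0 and 4 above 0, beside 31.6% and 29.6% of all genes tested. JAK2, which serves receptors such as CSF2RB and gp130, had 393 reads in Ramos and 100 in Ramos640 (-1.59, interval from -1.92 to -1.27). JAK1, the partner of IL7R, IL4R and IL10RA, had 10799 and 7232 (-0.20). JAK3, the kinase bound by IL2RG, was read little, with 104 and 57 reads (-0.48, interval from -0.98 to -0.0069), and JAK1 stood to JAK3 per length at 66.0 in Ramos and 80.6 in Ramos640, with overlapping intervals. STAT5A, which IL-7 and IL-2 activate, had 1336 and 683 reads (-0.59, interval from -0.72 to -0.45), while STAT5B had 3802 and 2781 (-0.070, interval from -0.14 to 0.00087). STAT6, the factor downstream of IL-4, had 6742 and 6960 reads (0.43, interval from 0.38 to 0.48), and STAT3, downstream of IL-21, IL-10 and gp130, had 2061 and 1945 (0.30). STAT4 had no reads. With the GC content trend removed JAK2 stood at -1.26, STAT5A at -0.77, STAT6 at 0.26 and STAT3 at 0.21. JAK3 then passed 1.5-fold (-0.65), and 6 genes were still lower and 4 higher.

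Among 9 genes known as targets of STAT factors, 6 were higher and 3 were lower, 3 of them higher past 1.5-fold, beside 14.6% of all genes tested. FCER2, which encodes CD23 and is induced by IL-4, had 20 reads in Ramos and 90 in Ramos640 (2.48, interval from 1.84 to 3.33). PRDM1, the plasma cell regulator Blimp-1, had 16 and 31 reads (1.28, interval from 0.42 to 2.30). BCL2, also past 1.5-fold, had 38 and 45 reads (0.61), with an interval from -0.030 to 1.29 that included 0. PIM1, a kinase, had 1186 and 1335 (0.55, interval from 0.44 to 0.67) and was inside 1.5-fold. IL4I1 had 66 and 47 reads (-0.11, interval from -0.68 to 0.45). BCL6, the germinal centre repressor, was lower, with 10949 and 6530 reads (-0.36, interval from -0.41 to -0.32). With the GC content trend removed FCER2 stood at 2.31, PIM1 at 0.39 and BCL6 at -0.42, and 7 of the 9 genes were higher and 2 lower. Of 11 feedback inhibitors 8 had at least 10 reads, and 2 of these were past 1.5-fold, PTPRC (-0.97) and SOCS1 (-0.59, interval from -0.96 to -0.24), both lower, beside 17.3% of all genes tested. SOCS1, a STAT-induced inhibitor of JAK kinases, had 195 and 99 reads, whereas SOCS3 and CISH had none. PTPN6, the phosphatase SHP-1, had 432 and 454 reads (0.45, interval from 0.26 to 0.65). Of the 8 feedback inhibitors 6 were lower and 2 higher, and with the GC content trend removed 4 were lower and 4 higher. PTPRC then stood at -0.60, SOCS1 at -0.73 and PTPN6 at 0.27, and SH2B3 also passed 1.5-fold (-0.60).

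**Figure D5:**
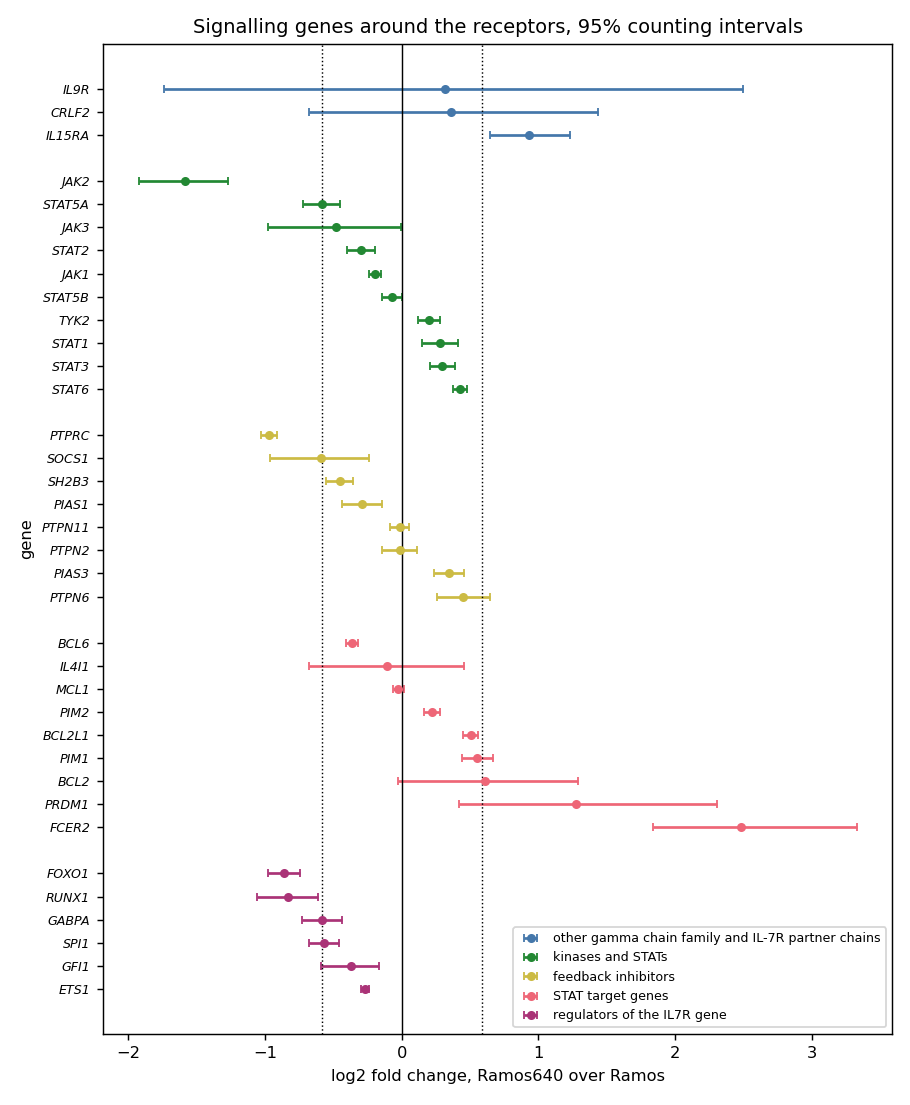
Log2FC of Ramos640 over Ramos (horizontal axis) with 95% counting intervals for the genes with at least 10 reads in 5 lists of receptor, signalling and target genes, with dotted lines at 1.5-fold. The regulators of IL7R all lie below 0 (from -0.86 to -0.27), JAK2 is at -1.59, STAT6 at 0.43 and FCER2 at 2.48. The GC content trend was not removed from these values.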

How the data were processed

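RNA-seq was performed on Ramos and Ramos640 cells, with 1 library per cell line. The authors removed adaptor sequences, aligned the Ion Proton reads with MapSplice to GRCh37 and deposited whole-number read counts per gene without normalization. The counting program, its annotation, its use of strand and its treatment of multiply mapped reads are not given in the sources used here. The 10 genes and all lists were chosen with earlier results of these data known.

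Both libraries entered under the cell line in their labels. Median-of-ratios size factors scaled the libraries, and the log2 fold change used a pseudocount of 1. Genes with 10 or more reads summed over both libraries (18778) were compared. Of the 37122 rows, 28 carry a number in place of a gene name and were kept. Clopper-Pearson intervals (95%) on the part of each gene's reads that came from Ramos640, and Poisson intervals of single counts, cover counting error only. With 1 library per cell line no dispersion can be estimated and no test was run. Positions, exon lengths and GC content came from GENCODE v44lift37 on GRCh37, and 84.1% of the genes compared were matched by current or older symbol. Alternatives were TMM factors from edgeR (version 4.0.16), total counts, pseudocounts of 0.1 and 10, minimums of 1 and 100 reads, removal of the GC content trend (running median over 501 genes) and the longest transcript as length. The fold and interval steps were tested on simulated data. Genes named are the 10 genes, those of the lists, the 3 nearest protein-coding genes with at least 10 reads on each side of a gene past 1.5-fold, and the 5 genes nearest to IL7R. The window of 5 Mb around IL7R and the CG counts were chosen after values were seen. The values of 1 B-cell marker are not reported here.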

Additional observations from a re-analysis of the deposited data

How the results depend on the processing

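No paired analysis was possible because each cell line had 1 library, and no library could be left out. Each of the 8 genes with at least 10 reads kept its direction under every alternative run, except IL10RB, which went from 0.066 to -0.015 with total counts. Total counts moved the median of all genes by -0.080 on the log2 scale, and IL4R to -0.35 and IL21R to -0.23. With the GC content trend removed, IL4R was at -0.45, IL21R at -0.32, IL10RB at 0.26 and IL6ST at -0.25, so 1 of the genes was past 1.5-fold. A pseudocount of 10 gave -4.44 for IL7R and also left 1 gene past 1.5-fold, IL7R. IL7R, with no reads in Ramos640, has a fitted value that the pseudocount sets. With a minimum of 1 read 10449 genes were past 1.5-fold among all genes, and 12 of the other receptor chains. With a minimum of 100 reads there were 3079 genes and 2 chains, against 5981 and 6 with 10 reads. The minimum itself changes how many genes are compared. The cause of the other changes was not tested. The order of the levels per length was the same with the longest transcript as length. The floor of 3 reads corresponds to 0.0789 CPM (reads scaled to library total) in Ramos and 0.0972 CPM in Ramos640. Levels under this floor can give an empty count, so an empty count does not show that a transcript is absent.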

Other observations

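The genes of B-cell precursors, the stage at which IL7R is usually expressed, did not differ in 1 direction between the libraries. VPREB1, part of the surrogate light chain, had 163 reads in Ramos against 21 in Ramos640 (log2FC -2.53, interval from -3.31 to -1.92). IGLL1, the other part of the surrogate light chain, had 90 and 147 reads (1.08, interval from 0.70 to 1.48). The recombinase gene RAG1 had 9 and 7 reads and RAG2 had 0 and 14, and DNTT had none. Among the B-cell markers, MME, which encodes the germinal centre marker CD10, had 12005 and 4880 reads (-0.92), and PAX5, the B-cell commitment factor, had 4624 and 2039 (-0.80).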
